A study of Mus musculus with 6 samples.

Results

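Liver tumour markers were followed as a set of 10 genes: Afp, Gpc3, Spink1, Ly6d, Golm1, Tspan8, Cd44, Bex1, Mid1 and Tff3. They were selected by symbol, and all 10 had a row among the 24982 genes of the 6 count tables. The tissue was liver of male C57BL/6NJ mice. Of the 6 samples 3 came from mice given chow and 3 from mice given a high fat diet plus sugar water (HFHS), and the study's text gives 54 weeks for both. The series title calls the diet a model of steatohepatitis that progresses to hepatocellular carcinoma. Whether the sampled liver held tumour, how old the mice were and whether each sample is a separate mouse is not stated in the labels. A p-value therefore measures the spread between these samples, which may be technical.

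Tumours of hepatocytes often switch on genes of the fetal liver that the adult liver keeps nearly silent. Alpha-fetoprotein (Afp) and the surface proteoglycan glypican-3 (Gpc3) are the classical examples, and both are used to recognise human hepatocellular carcinoma. Other markers are also made by bile duct cells, by leukocytes or by epithelium outside the liver. Among the secreted or shed products, Golm1 is a Golgi membrane protein found in serum, Spink1 a trypsin inhibitor and Tff3 a peptide of mucous epithelia. At the cell surface, Ly6d is a lipid-anchored protein, Tspan8 a tetraspanin and Cd44 a receptor for hyaluronan. Inside the cell, Bex1 is a small adaptor-like protein and Mid1 a ubiquitin ligase on microtubules.

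The libraries held 16565335 to 20585366 gene counts each. Levels are CPM, the counts of a gene scaled to a common library total, after TMM scaling, which sets the bulk of genes equal between libraries. HFHS replicate 2 stood apart from its group, with Pearson correlations across genes of 0.961 and 0.957 to replicates 1 and 3, against 0.982 between those 2. The diets were compared by the quasi-likelihood test of edgeR on 12949 genes that passed a filter on low counts. A gene was called at a p under 0.05 after Benjamini-Hochberg (BH) adjustment over all of them.

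Of the 10 members 6 rose in HFHS livers: Afp, Golm1, Spink1, Ly6d, Tspan8 and Cd44. Among all tested genes 11.0% were called higher and 3.61% lower. No member was called lower by edgeR, DESeq2 or limma-voom, and Gpc3, the single tested member below 0, had an unadjusted edgeR p of 0.618. Gpc3 and Mid1 were tested and not called, and Tff3 and Bex1 were too low to be tested. Of the classical pair, alpha-fetoprotein rose and glypican-3 was not called. The filter asked for 3 libraries at or above 0.524 CPM on unscaled library sizes. Spink1, Ly6d and Tspan8 had 0, 1 and 2 chow libraries over that level, and each had 3 HFHS libraries over it. Spink1 and Ly6d could thus be tested only if they were high in HFHS. Tspan8 needed 1 HFHS library over a level that 2 of its chow libraries reached.

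The bases before the start sites of Afp, Gpc3 and Golm1 are printed because these 3 are used as clinical tests of liver cancer and 2 of them rose here. Each line gives the 250 bases before the RefSeq start, 5′ to 3′ on the strand of the gene (GRCm38.p6), and capitals mark the motifs that were found. The windows are chr5:90490464-90490713 (plus strand) for Afp, chrX:52613975-52614224 (minus strand) for Gpc3 and chr13:59675785-59676034 (minus strand) for Golm1.
Afp: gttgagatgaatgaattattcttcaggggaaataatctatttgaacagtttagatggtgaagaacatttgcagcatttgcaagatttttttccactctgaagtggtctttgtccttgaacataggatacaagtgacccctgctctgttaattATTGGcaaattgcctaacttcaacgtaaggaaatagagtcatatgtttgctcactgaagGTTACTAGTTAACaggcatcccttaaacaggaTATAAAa
Gpc3: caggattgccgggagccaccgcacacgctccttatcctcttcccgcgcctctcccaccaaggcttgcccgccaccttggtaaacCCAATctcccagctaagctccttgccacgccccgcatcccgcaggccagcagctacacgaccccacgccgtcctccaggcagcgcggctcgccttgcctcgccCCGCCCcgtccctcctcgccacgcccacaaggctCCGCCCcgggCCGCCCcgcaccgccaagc
Golm1: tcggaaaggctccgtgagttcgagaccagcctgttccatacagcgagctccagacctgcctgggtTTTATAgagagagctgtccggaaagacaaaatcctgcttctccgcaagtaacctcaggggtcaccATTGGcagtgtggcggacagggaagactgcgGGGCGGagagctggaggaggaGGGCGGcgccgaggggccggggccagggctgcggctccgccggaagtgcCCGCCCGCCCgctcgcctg

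The Afp window was poor in G and C (36.0% of bases), whereas Gpc3 had 71.6% and Golm1 65.6%, and the median of 32851 windows of that length was 52.4%. It held GTTACTAGTTAAC from 39 to 27 bases before the start, a match to the pattern of the hepatocyte factor HNF1, which 0.0822% of windows hold on either strand. It also held TATAAA from 7 to 2 bases before the start (12.4% of windows) and CCAAT on the other strand (33.8%). These distances are from the RefSeq start at 90490714. The GENCODE annotation starts the gene further downstream, at 90490737, from which each motif lies further away. Gpc3 held the GC box GGGCGG 3 times on the other strand and CCAAT once. Golm1 held the GC box 4 times, with an overlap between the pair nearest the start, and CCAAT and TATAAA on the other strand. GC boxes stood in 32.7% of all windows. No match was found in these 3 windows, on either strand, to CAAGGTCA (NR5A2, 1.33% of windows), TGANTCA (AP-1, 6.75%), GGAATG (TEAD, 12.6%), CTTTGAT (TCF/LEF, 3.21%) or the NF-kB pattern (0.356%). The windows of Tspan8 and Cd44 held none of the 9 patterns. The Tspan8 window, chr10:115817034-115817283 (plus strand), lies downstream of the gene's first base at 115816817. The bases before that first base were not scanned.

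Afp (chromosome 5, 90490714 to 90508907, plus strand), the albumin-like serum protein of the fetus, was at 0.946, 0.715 and 0.808 CPM in chow replicates 1, 2 and 3. It was at 3.00, 2.35 and 3.69 CPM in HFHS replicates 1, 2 and 3. Every HFHS library lay above every chow library, and replicate 2 was the lowest of the HFHS group. The means were 0.823 ± 0.116 CPM on chow and 3.01 ± 0.670 CPM on HFHS (SD, n = 3), a 3.62-fold rise (edgeR log2 fold change 1.86 ± 0.30, SE; BH-adjusted p = 0.0130). The group totals behind it were small, 42 and 185 counts. Its relatives beside it in the albumin gene cluster were not called higher. Albumin (Alb) was at 78930 ± 10319 CPM on chow and 48534 ± 23510 CPM on HFHS (SD, n = 3) and was not called by edgeR, DESeq2 or limma-voom. Afamin (Afm), a vitamin E carrier, fell from 307 ± 11.9 to 188 ± 32.7 CPM (SD, n = 3) (edgeR log2 fold change -0.71 ± 0.17, SE; BH-adjusted p = 0.0311). Gc, the vitamin D carrier of the family, was at 7632 ± 685 CPM on chow and 5917 ± 212 CPM on HFHS (SD, n = 3), with chow above in every library. It was not called by edgeR (BH-adjusted p = 0.269) or limma-voom, and DESeq2 called it lower.

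Golm1 (chromosome 13, 59634996 to 59675784, minus strand) was at 1.89, 1.65 and 1.41 CPM in the chow replicates and at 7.13, 12.5 and 4.30 CPM in the HFHS replicates. The groups did not overlap, and HFHS replicate 2 was the highest. The rise was 4.83-fold (edgeR log2 fold change 2.27 ± 0.40, SE; BH-adjusted p = 0.0160). Exons of Golm1 overlap those of Naa35 on the other strand, and no source used here gives the strand setting of the counting. The same limit applies to Tspan8, Bex1 and Mid1, whose exons also overlap those of genes on the other strand. Naa35, an acetyltransferase subunit, ran at 35.8, 38.2 and 36.5 CPM in chow and 35.4, 31.9 and 32.7 CPM in HFHS, and was not called. None of 5 relatives and processing genes of Golm1 was called by edgeR (2 at an unadjusted p under 0.05), against 2 with DESeq2 and 1 with limma-voom. Furin, a protease that releases Golm1, was at 202 ± 25.1 CPM on chow and 169.7 ± 19.7 CPM on HFHS (SD, n = 3). The relative listed as Casc4 (Golm2) was at 4.13 ± 1.70 CPM on chow and 8.32 ± 0.624 CPM on HFHS (SD, n = 3), with an edgeR BH-adjusted p of 0.0520.

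Spink1 (chromosome 18, 43728069 to 43737237, minus strand) had 4, 0 and 1 counts in chow and 31, 42 and 33 in HFHS. These were 0.222, 0 and 0.0673 CPM against 1.60, 1.62 and 1.84 CPM, and the 0 of chow replicate 2 allows up to 0.165 CPM (3 counts). The HFHS libraries lay close together and above every chow library. The edgeR log2 fold change was 4.02 ± 0.64 (SE; BH-adjusted p = 0.0128), and its size rests on 5 chow counts: it was 5.51 without chow replicate 1 and 3.42 without chow replicate 2. The ratio of totals was 17.1, with a 95% exact interval of 7.10 to 53.7 for counting error. Spink1 is also a product of pancreatic acinar cells. Of 11 acinar markers, Try4, Cpa1, Cpb1, Ctrb1, Pnlip and Clps had 0 counts in all libraries and Prss2 had 1. Cela3b and Amy2b had 1 and 2 counts in chow and 0 in HFHS, and Cela2a had 24 and 20. The elastase Cela1, the single acinar gene tested, fell from 19.7 ± 7.07 to 10.1 ± 1.11 CPM (SD, n = 3). The acinar list summed to 14.1 to 27.9 CPM in chow and 9.66 to 11.7 CPM in HFHS. Of 10 other SPINK inhibitors 7 had no counts in any library.

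Tff3 (chromosome 17, 31125306 to 31129611, minus strand) had 1, 4 and 1 counts in chow and 53, 32 and 9 in HFHS. The levels were 0.0556, 0.220 and 0.0673 CPM against 2.74, 1.23 and 0.503 CPM. The groups did not overlap, HFHS replicate 1 was the highest, and replicate 3 was nearest to chow. Tff3 was outside the main test, because 2 libraries reached the filter level. With no filter on low counts it was called, at an edgeR log2 fold change of 3.58 ± 0.78 (SE; BH-adjusted p = 0.0187). The ratio of totals was 12.6, with a 95% exact interval of 5.59 to 35.3 for counting error. The other trefoil genes next to it were near silent: Tff1 had 0 counts in chow and 1 in HFHS, and Tff2 had 1 and 17. Of 9 intestinal goblet cell and enterocyte markers 3 were tested, and none was called by edgeR (0 at an unadjusted p under 0.05), DESeq2 or limma-voom. They were Fabp2, a fatty acid carrier of enterocytes, at 97.6 ± 28.2 CPM on chow and 179 ± 102 CPM on HFHS (SD, n = 3), Lgals4 at 1.20 ± 0.212 CPM on chow and 1.48 ± 0.523 CPM on HFHS (SD, n = 3) and the goblet cell gene Fcgbp at 1.66 ± 1.23 CPM on chow and 1.22 ± 1.28 CPM on HFHS (SD, n = 3). Of the rest, Zg16 and Cdx2 had no counts, Muc2 had 1 and 2, Agr2 0 and 1, Clca1 2 and 1, and Vil1 9 and 22. The list, held mostly by Fabp2, summed to 79.7 to 133 CPM in chow and 152, 97.6 and 296 CPM in HFHS replicates 1, 2 and 3, and its part in the Tff3 difference was not tested.

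**Figure D1:**
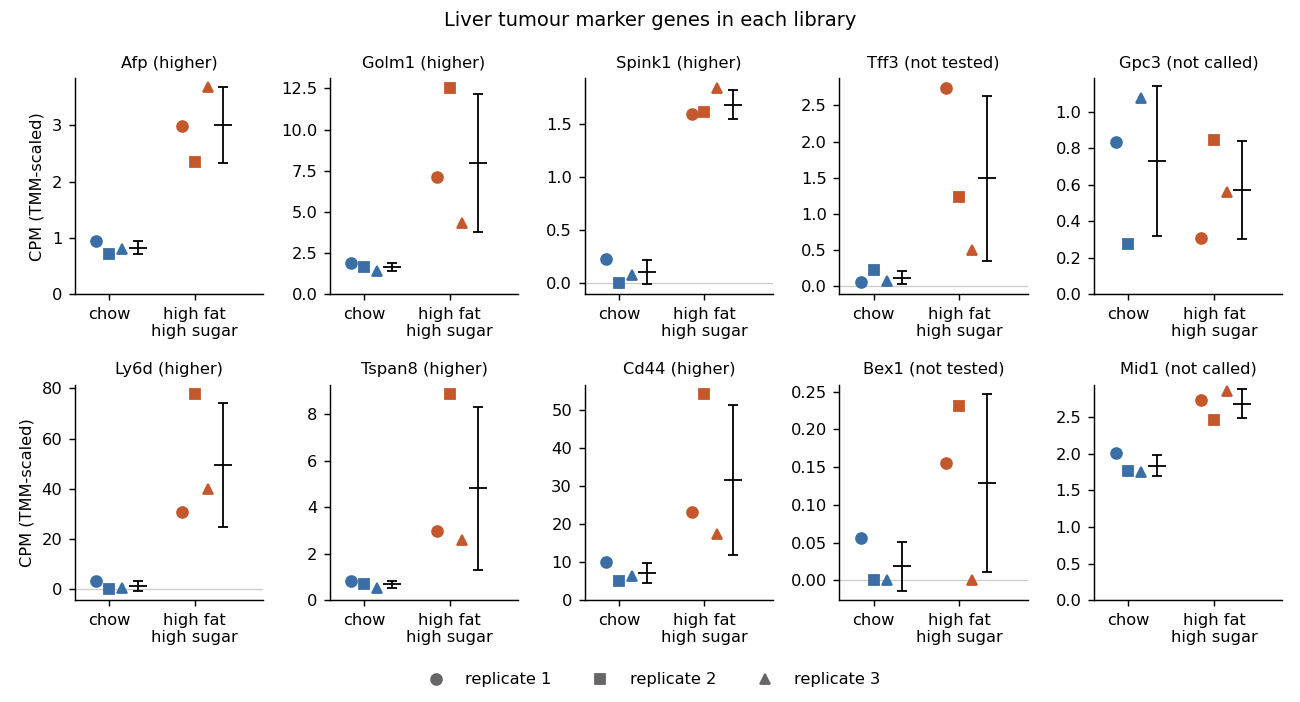
Level of each member in CPM (vertical axes, linear and set for each gene) in the 3 chow and the 3 HFHS libraries, with a symbol for each replicate and black bars for the mean ± SD. Afp, Spink1 and Mid1 lie close together within each diet, Golm1, Ly6d, Tspan8 and Cd44 spread widely in HFHS, and Gpc3 overlaps between the diets.

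Gpc3 (chromosome X, 52272426 to 52613974, minus strand) was at 0.834, 0.275 and 1.08 CPM in chow and at 0.310, 0.847 and 0.559 CPM in HFHS. The groups overlapped, on 36 and 38 counts in all. It was not called (edgeR log2 fold change -0.30 ± 0.57, SE; BH-adjusted p = 0.756), with a 95% interval from 0.322-fold to 2.05-fold. The interval of Afp ran from 2.23-fold to 5.87-fold. The sign of the Gpc3 difference turned to 0.06 without chow replicate 3. It also turned, to 0.0061, with scaling by library size only, where the median of all genes shifted by 0.27 on the log2 scale. Other glypicans carry heparan sulfate chains as Gpc3 does. Gpc4, its neighbour on the chromosome, was at 47.3 ± 4.15 CPM on chow and 45.7 ± 3.07 CPM on HFHS (SD, n = 3), and Gpc1 at 25.2 ± 7.85 CPM on chow and 36.7 ± 18.1 CPM on HFHS (SD, n = 3), and neither was called. Gpc6 rose from 1.28 ± 0.182 to 5.96 ± 1.16 CPM (SD, n = 3) (edgeR log2 fold change 2.21 ± 0.25, SE; BH-adjusted p = 0.00775), the single call among 3 tested.

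Ly6d (chromosome 15, 74762056 to 74763567, minus strand) had the largest log2 fold change of the 8 tested members. It was at 3.45, 0.275 and 0.404 CPM in chow, from 62, 5 and 6 counts, and at 30.9, 77.6 and 40.1 CPM in HFHS, from 598, 2016 and 717 counts. Chow replicate 1 lay well above the other chow libraries and below every HFHS library. The edgeR log2 fold change was 5.13 ± 0.86 (SE; BH-adjusted p = 0.0173) and 7.18 without chow replicate 1. The nearest family member on each side, Lynx1 and Ly6k, rose too. The next protein-coding genes outward with a row, Slurp2 and Gml, had 0 counts in every library. Ly6k had 1 count in chow and 64 in HFHS and could be tested only because it was high there. Lynx1 rose from 0.637 ± 0.155 to 2.62 ± 0.937 CPM (SD, n = 3). Of 21 listed Ly6 genes outside the members 7 were tested. Of those 7, 4 rose and none fell, the others that rose being Ly6a (log2 fold change 1.33 ± 0.27) and Ly6e (1.06 ± 0.24).

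Ly6d also marks early B cells and stratified epithelium. None of 5 tested B cell markers was called by edgeR, DESeq2 or limma-voom, with 1 at an unadjusted edgeR p under 0.05. Their summed level was 3.58 to 4.24 CPM in chow and 4.69 to 8.58 CPM in HFHS, without overlap, and Cd79a was at 0.626 ± 0.0883 CPM on chow and 1.05 ± 0.446 CPM on HFHS (SD, n = 3). Of 6 markers of stratified epithelium Sfn was the single one tested. It was at 0.447 ± 0.297 CPM on chow and 1.79 ± 1.60 CPM on HFHS (SD, n = 3), with overlap between the groups, and was not called (edgeR log2 fold change 2.05 ± 0.81, SE; unadjusted p = 0.0383, BH-adjusted p = 0.130). The keratin Krt5 had 1 count in each diet, Krt14, Krt15 and Trp63 had 3, 4 and 2 in chow and 0 in HFHS, and Dsg3 had 0 and 1. The list, held mostly by Sfn, summed to 0.275 to 0.834 CPM in chow and 1.14, 3.69 and 0.615 CPM in HFHS replicates 1, 2 and 3. Its sum was highest in replicate 2, as were Ly6d and 84.3% of all genes called higher.

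Tspan8 (chromosome 10, 115816817 to 115849893, plus strand) was at 0.834, 0.715 and 0.539 CPM in chow and at 3.00, 8.85 and 2.57 CPM in HFHS. The groups did not overlap, and HFHS replicate 2 stood well above replicates 1 and 3. The edgeR log2 fold change was 2.78 ± 0.56 (SE; BH-adjusted p = 0.0209) and 1.99 without HFHS replicate 2. Its neighbour Lgr5, a receptor of the Wnt pathway, was at 8.66 ± 1.62 CPM on chow and 6.61 ± 0.826 CPM on HFHS (SD, n = 3) and was not called. Of 23 other tetraspanins tested 7 rose and 1 fell. Cd63, a tetraspanin of lysosomes and exosomes, rose from 4.36 ± 1.03 to 65.1 ± 58.8 CPM (SD, n = 3), with a wide spread between the HFHS libraries. Tspan15, a partner of the protease ADAM10, rose by 1.61 ± 0.24 and Tspan3 by 1.49 ± 0.31 on the log2 scale, while Tspan33 fell by 1.24 ± 0.30.

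Cd44 (chromosome 2, 102811141 to 102901669, minus strand) had 370 counts over the chow group and 2176 over HFHS. It was at 10.1, 5.17 and 6.40 CPM in chow and at 23.2, 54.3 and 17.5 CPM in HFHS. The groups did not overlap, and HFHS replicate 2 was the highest. The edgeR log2 fold change was 2.14 ± 0.48 (SE; BH-adjusted p = 0.0334) and 1.51 without HFHS replicate 2. Gene counts do not separate its splice forms. Of 15 tested genes for its ligands, partners and hyaluronan handling 9 rose and none fell. Osteopontin (Spp1), a ligand, rose from 30.7 ± 11.1 to 205 ± 52.7 CPM (SD, n = 3). The hyaluronan receptors Lyve1 and Hmmr rose by 2.36 ± 0.29 and 2.82 ± 0.53 on the log2 scale, and Msn, which ties Cd44 to actin, by 1.73 ± 0.23. The hyaluronan synthase Has2 had 0 counts in chow and 2 in HFHS. Esrp1, a splicing factor of epithelial Cd44 forms, had 6 and 25, and neither was tested.

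Mid1 (chromosome X, 169685199 to 169990798, plus strand) was at 2.00, 1.76 and 1.75 CPM in chow and at 2.74, 2.46 and 2.85 CPM in HFHS. The HFHS libraries lay above the chow libraries, a separation found in 21.5% of tested genes (18.0% with chow above). The difference of 1.46-fold missed the threshold (edgeR log2 fold change 0.54 ± 0.23, SE; unadjusted p = 0.0472, BH-adjusted p = 0.149). Mouse Mid1 crosses the edge of the pseudoautosomal region, so that part of it has a copy on the Y chromosome, and reads shared by both copies make its level uncertain. None of 5 tested partner genes was called by edgeR, DESeq2 or limma-voom, and 0 had an unadjusted edgeR p under 0.05. Among them Mid1ip1, a factor of fat synthesis, was at 66.6 ± 17.3 CPM on chow and 81.7 ± 49.5 CPM on HFHS (SD, n = 3).

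Bex1 (chromosome X, 136213972 to 136215513, minus strand) had 1, 0 and 0 counts in chow and 3, 6 and 0 in HFHS. The groups overlapped at 0, and a two-sided exact permutation test of log2 CPM gave p = 0.4, where 3 against 3 cannot go below 0.1. The ratio of totals was 7.26, with a 95% exact interval of 1.01 to 318 for counting error. Its relatives were low as well, and reads of these similar genes may be split between them. Bex2 had 0 counts in chow and 18 in HFHS, Bex4 had 4 and 19, and Bex3 was at 0.827 ± 0.580 CPM on chow and 1.47 ± 0.864 CPM on HFHS (SD, n = 3) and was not called. Tceal9, of the adjoining family, rose from 9.05 ± 2.25 to 19.2 ± 3.77 CPM (SD, n = 3).

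**Figure D2:**
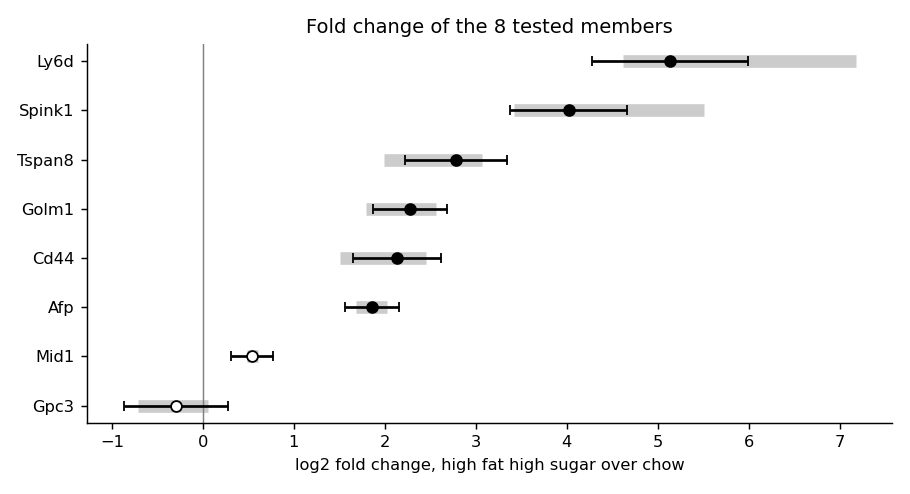
Log2 fold change of HFHS over chow (horizontal axis) for the tested members, as the edgeR estimate ± SE, with filled points for calls and grey bars for the range with each library left out in turn. The filled points run from 1.86 for Afp to 5.13 for Ly6d, and Mid1 and Gpc3 are not filled.

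Levels of different genes were set side by side per length, as CPM for each kilobase of merged exons in GENCODE M21 (RPKM). In HFHS livers Ly6d was highest at 66.5 ± 33.3 RPKM (SD, n = 3), and its lowest library, at 41.5 RPKM, was above the highest library of Cd44, at 8.02 RPKM. Then came Cd44 at 4.68 ± 2.92, Tff3 at 3.02 ± 2.31, Tspan8 at 2.82 ± 2.06, Spink1 at 2.31 ± 0.186, Golm1 at 1.81 ± 0.947 and Afp at 0.894 ± 0.199 RPKM. From Cd44 to Afp each gene overlapped the next, so their order is not fixed. Mid1 followed at 0.399 ± 0.0296 RPKM and Gpc3 at 0.213 ± 0.0999 RPKM, each without overlap with the gene above it, and Bex1 was last at 0.108 ± 0.0992 RPKM. In chow, Ly6d was at 1.85 ± 2.41 and Cd44 at 1.06 ± 0.376 RPKM, with overlap between them. Tspan8, Golm1, Mid1, Gpc3, Afp and Tff3 had chow means between 0.409 and 0.232 RPKM, and Spink1 and Bex1 lay at 0.133 and 0.0156 RPKM. In chow the neighbours without overlap were Cd44 above Tspan8 and Golm1 above Mid1. Afp, though called higher, reached 1.09 RPKM in its highest library.

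The 6 members that rose did not share 1 pattern over the HFHS libraries. Ly6d, Golm1, Tspan8 and Cd44 were highest in replicate 2, at 56.4, 7.60, 12.7 and 7.54 times the chow mean. Afp and Spink1 were highest in replicate 3. Afp was at 3.64, 2.85 and 4.48 times the chow mean in replicates 1, 2 and 3, lowest in replicate 2, and Spink1 was nearly level at 16.6, 16.7 and 19.1 times. Of all genes called higher, 84.3% were highest in replicate 2, 7.91% in replicate 1 and 7.77% in replicate 3.

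**Figure D3:**
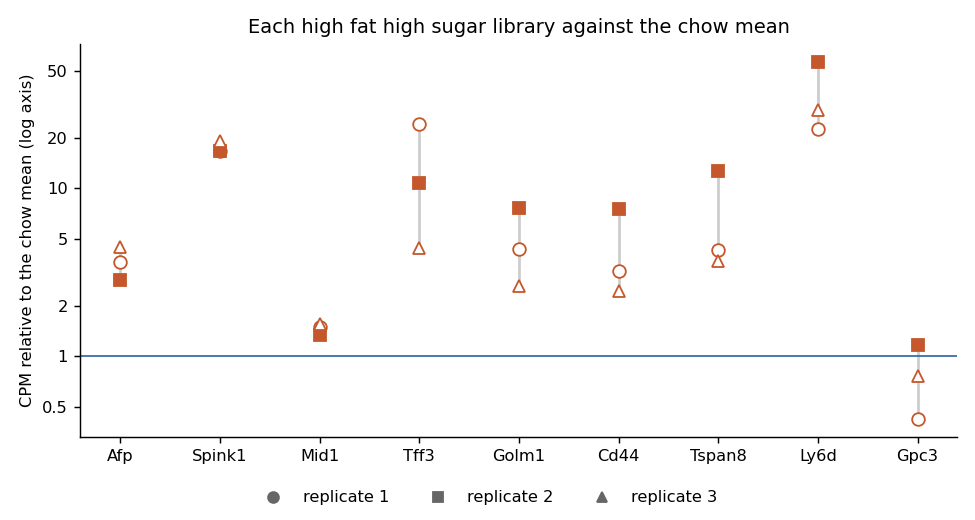
CPM of 9 members in each HFHS library relative to the chow mean (log axis), with filled squares for replicate 2; Bex1 is not shown. Replicate 2 is the highest library for Golm1, Cd44, Tspan8, Ly6d and the uncalled Gpc3 and the lowest for Afp and Mid1.

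Markers of several other cell types also differed between the diets. In whole liver, a change in the number of cells of a type and in RNA per cell cannot be told apart. Of the macrophage and other leukocyte markers 8 of 8 tested rose, with Csf1r going from 38.9 ± 5.78 to 126 ± 29.2 CPM (SD, n = 3) and Adgre1 from 13.8 ± 3.03 to 63.7 ± 12.2 CPM (SD, n = 3). The T cell genes Cd3e and Cd3g of this list were not tested, and their levels overlapped between the diets. Cd3e had 14 counts in chow and 38 in HFHS, and Cd3g had 33 and 46. The list summed to 109 to 157 CPM in chow and 502, 1017 and 411 CPM in HFHS replicates 1, 2 and 3. Bile duct markers rose in 7 of 12 and summed to 105 to 127 CPM in chow and 299.6, 419 and 266 CPM in HFHS. That sum was held mostly by Spp1, named above as a Cd44 ligand, and by Anxa4, which was not called. On HFHS they were at 205 ± 52.7 and 84.9 ± 17.9 CPM (SD, n = 3), while Krt19 was at 2.05 ± 1.42 CPM. Stellate cell and fibroblast markers rose in 6 of 8 and summed to 152 to 200.3 and 454, 842 and 424 CPM. Dcn was the largest part of that sum, at 342 ± 75.3 CPM on HFHS (SD, n = 3). The leukocyte, bile duct and stellate cell sums were highest in HFHS replicate 2, as Ly6d, Golm1, Tspan8 and Cd44 were. So were 84.3% of all genes called higher, so the shared peak does not set these lists apart. Markers of dividing cells rose in 6 of 8, among them Mki67 from 2.30 ± 0.951 to 8.44 ± 1.75 CPM (SD, n = 3), and summed to 4.45 to 8.95 CPM in chow and 23.0, 22.1 and 18.9 CPM in HFHS, lowest in replicate 3. Hepatocyte markers fell in 1 of 9 and summed to 112300 to 133100 CPM in chow and 112500, 59330 and 90500 CPM in HFHS, lowest in replicate 2. Alb, which was not called, was the largest part of that sum, at 71089, 24173 and 50340 CPM in HFHS replicates 1, 2 and 3. Some markers low in chow passed the filter only through HFHS, as Cftr (0, 0 and 1 chow counts) and Ccnb1 (3, 2 and 4). That favours rises among the tested markers. The part of these cell types in the rises of the members was not tested.

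**Figure D4:**
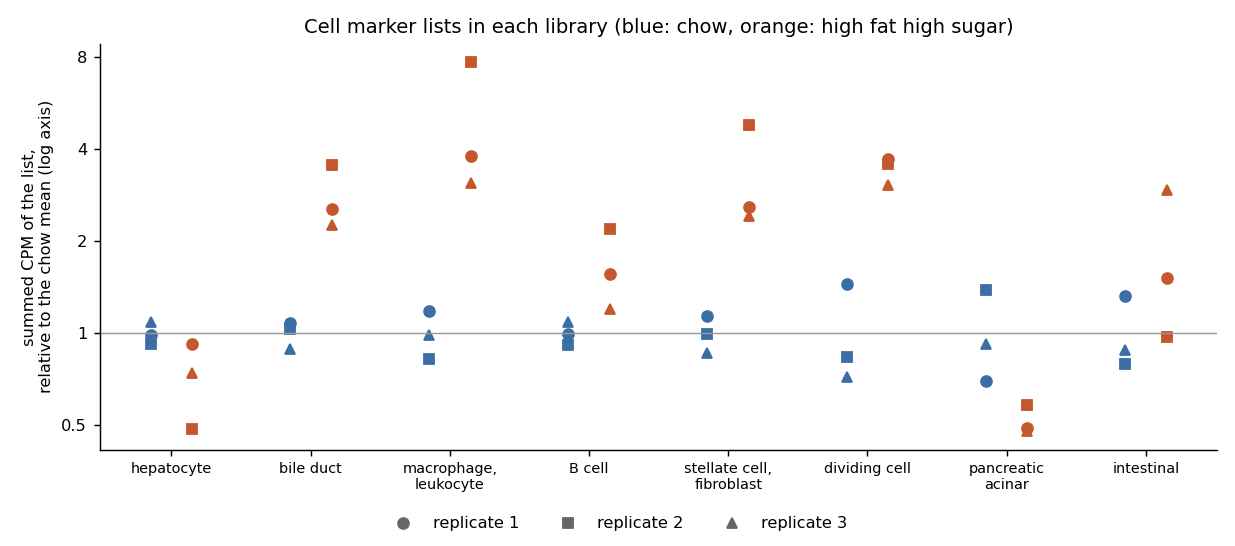
Summed CPM of 8 lists of cell type markers in each library relative to the chow mean (log axis), with a symbol for each replicate. The leukocyte, bile duct and stellate cell lists lie above chow in every HFHS library and are highest in replicate 2, where the hepatocyte list is lowest. Each sum mostly follows the most abundant genes of its list. Of all genes called higher, 84.3% are highest in replicate 2.

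Other genes used for liver tumours were also mixed. Of 11 tested oncofetal and progenitor genes outside the members 6 rose and 1 fell, with a median log2 fold change of 1.98 against -0.02 over all tested genes. Some of the 11, as H19 with 3, 3 and 0 chow counts, passed the filter only through HFHS. That favours rises among the tested genes of this and the other lists. The fetal RNA H19 rose from 0.111 ± 0.0958 to 9.52 ± 5.63 CPM (SD, n = 3) and the RNA-binding Igf2bp2 from 0.632 ± 0.199 to 6.21 ± 2.28 CPM (SD, n = 3). Of its oncofetal relatives, Igf2bp1 had 1 count in chow and 0 in HFHS, and Igf2bp3 had 0 and 1. Dlk1, a gene of fetal hepatoblasts, had 0 and 6. Epcam rose from 0.994 ± 0.448 to 4.49 ± 2.08 CPM (SD, n = 3) and Krt19 from 0.467 ± 0.126 to 2.05 ± 1.42 CPM (SD, n = 3), both genes of bile duct and progenitor cells. Sox9, of the same cells, was at 4.30 ± 2.27 CPM on chow and 5.60 ± 2.19 CPM on HFHS (SD, n = 3) and was not called. Tert, the catalytic subunit of telomerase, fell from 13.6 ± 4.01 to 6.10 ± 1.53 CPM (SD, n = 3) (edgeR BH-adjusted p = 0.0318). Its call was lost with library size only, with the replicate block and without chow replicate 2 or 3 or HFHS replicate 2 or 3. Of 15 tested secreted, membrane and enzyme markers of tumours 7 rose and none fell (median 1.86). They included Top2a, a topoisomerase of dividing cells (log2 fold change 2.57 ± 0.42), the glycolytic Pkm (1.87 ± 0.25) and G6pdx, which opens the pentose phosphate pathway (1.71 ± 0.25).

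Targets of beta-catenin, which mark tumours with an active Wnt pathway, had no call among 13 tested by edgeR (median log2 fold change -0.18). At an unadjusted edgeR p under 0.05 there were 2, of which 1 was higher. DESeq2 called 1, which was higher, and limma-voom called 0. Glutamine synthetase (Glul), the usual tissue marker, was at 1118 ± 308 CPM on chow and 1730 ± 175 CPM on HFHS (SD, n = 3), with HFHS above in every library. Its unadjusted edgeR p was 0.0368, and its BH-adjusted p was 0.126. Axin2 was at 7.16 ± 1.84 CPM on chow and 8.99 ± 1.15 CPM on HFHS (SD, n = 3) and was not called. Of 13 tested regulators of Afp and of fetal liver genes edgeR called 1 higher and 1 lower, DESeq2 1 higher and 3 lower, and limma-voom 1 lower. Trp53, the p53 gene, had a log2 fold change of 0.55 ± 0.15 (SE; edgeR BH-adjusted p = 0.0482). That call was lost with RLE scaling, limma-voom, the replicate block and each library left out but HFHS replicate 3. Nr5a2, a nuclear receptor of liver genes, was at -0.42 ± 0.10 (SE; edgeR BH-adjusted p = 0.0348). Its call was lost with library size only, the replicate block and each library left out but HFHS replicate 3. The repressors of Afp after birth were not called by edgeR or limma-voom. Zhx2 was at 24.3 ± 1.30 CPM on chow and 20.1 ± 1.64 CPM on HFHS (SD, n = 3) and Zbtb20 at 9.28 ± 1.81 CPM on chow and 5.71 ± 0.927 CPM on HFHS (SD, n = 3), both with chow above in every library, and Zfhx3 at 12.6 ± 1.78 CPM on chow and 10.7 ± 3.39 CPM on HFHS (SD, n = 3). The edgeR BH-adjusted p was 0.134 for Zhx2 and 0.0639 for Zbtb20, and DESeq2 called Zbtb20 lower.

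**Figure D5:**
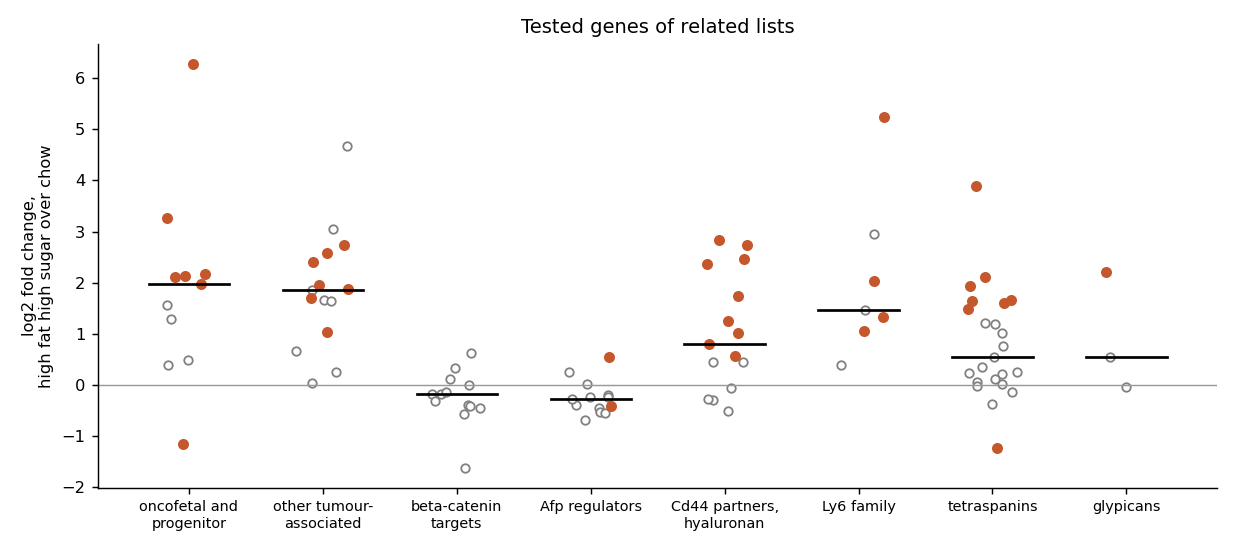
Log2 fold change of HFHS over chow (vertical axis) for each tested gene in 8 related lists, with filled points for calls and black lines for medians. The oncofetal and tumour-associated lists have medians of 1.98 and 1.86, and the beta-catenin list has no filled point.

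The genes most like each called member were found by the Pearson correlation of log2 CPM over the 6 libraries. These libraries share the diet difference, and many genes correlate closely. For Afp, 115 genes had r above 0.95, led by Apoa4 (0.9958), Fkbp7 (0.9937), Xxylt1 (0.9907). For Spink1 there were 237, led by Folr2 (0.9959), Kbtbd11 (0.9958), Ccdc34 (0.9934). For Ly6d there were 479, led by Fndc3b (0.9955), Cd40 (0.9944), Vsig4 (0.9943). Golm1 had 916, led by Gab2 (0.9982), Adamts9 (0.9979), Adamts5 (0.9979), and Cd44 had 874, led by Aim2 (0.9994), Wnt5a (0.9987), Itga4 (0.9982). Tspan8 had the most, 1015, led by Plekha2 (0.9999), Plekho1 (0.9997), Rasgrp1 (0.9987).

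The calls depended on the chow libraries. Without chow replicate 3 none of the 6 was called, with edgeR BH-adjusted p from 0.0706 to 0.123 and all 6 log2 fold changes at or above 1.84. There 7 of 9 members tested had an unadjusted p under 0.05, and 0.0301% of all genes were called higher. Without chow replicate 2 Spink1 alone was called, beside 2.60% of all genes. Without chow replicate 1 Afp, Spink1, Ly6d and Golm1 were called, beside 5.73%. Leaving out HFHS replicate 1, 2 or 3 kept all 6, beside 9.02%, 9.42% and 12.6%. All 6 were called with RLE scaling (10.9% of all genes called higher), library size only (14.9%) and DESeq2 (14.0%). Limma-voom called Afp, Spink1, Ly6d and Golm1 (7.66%). With no filter (8.17%) Cd44 was lost, and with the replicate number as a block (7.42%) Ly6d and Cd44 were lost. Of 39 genes outside the members that the rule for named genes took in and edgeR called, all 39 lost the call without chow replicate 3. Of these, 10 also lost it under another scaling, filter, tool or the block: Afm and Ptprc with the block, Cd63 with no filter, Cela1 with library size only and limma-voom, Krt19 with limma-voom and the block, Tspan33 with library size only and the block, Serpina1a with these 2, no filter and limma-voom, and Tert, Trp53 and Nr5a2 as given above.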

How the data were processed

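PolyA RNA of 6 mouse liver samples was sequenced from strand-marking libraries, per the labels' protocols, and samples were grouped by the diet in their labels. The deposited values are whole-number counts per gene symbol. Per the submitters' processing notes, reads were aligned with STAR to mm10; no source used here names the counting program, annotation or strand setting. Rows for reads outside genes (7.74% to 10.6% of counts) and for ambiguous reads (0.615% to 0.862%) were left out.

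Genes were kept with filterByExpr (minimum count 10). The main test was the robust quasi-likelihood F test of edgeR 4.0.16 with TMM scaling (R 4.3.3), with Benjamini-Hochberg (BH) adjustment over all tested genes. Each SE is the log2 fold change over the square root of F. Log2 CPM used a prior count of 2. Alternatives were RLE scaling, library size only, no filter, DESeq2 1.42.0, limma-voom (limma 3.58.1), a replicate block and each library left out. The fits were tested on simulated data. No 2 libraries of a group were copies, the lowest chi-square per gene being 24.9.

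The members and lists were chosen with earlier results of these data known. Of 263 list symbols 261 had a row, 3 under an older symbol. Named genes are the members, the 3 genes of smallest p called in each direction of each list, 40 further genes whatever their value, and the 3 genes most correlated with each called member. Not every gene the rule allows is described. Ly6e, Naa35, Anxa4, Slurp2 and Gml were named after their values were seen. So were the members of the acinar, intestinal and stratified epithelium lists other than Cela1, Prss2, Muc2 and Krt5. Positions and promoter sequences are from RefSeq (GRCm38.p6). Intervals and floors cover counting error only.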

Additional observations from a re-analysis of the deposited data

How the results depend on the processing

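The 6 members that rose kept a positive log2 fold change under every alternative run. Cd44 missed the threshold with limma-voom (2.02), with no filter on low counts (2.11) and with the replicate block (2.00), Tspan8 with limma-voom (2.615) and Ly6d with the replicate block (5.34). Same-numbered libraries had correlations of deviations from the group mean of -0.253, -0.166 and 0.0292. Different-numbered ones ran from -0.0795 to 0.234. Deviations within a group of 3 sum to 0, so these values are tied to each other and cannot settle whether the replicate numbers pair the libraries. With each library left out, 0 to 7 members were called, Tff3 being the added one without HFHS replicate 3. The log2 fold changes then ran from 1.68 to 2.02 for Afp, 1.79 to 2.56 for Golm1, 3.42 to 5.51 for Spink1, 4.62 to 7.18 for Ly6d, 1.99 to 3.07 for Tspan8, 1.51 to 2.45 for Cd44 and -0.71 to 0.0599 for Gpc3. Gpc3 was at 0.00614 with library size only. Genes called higher numbered 1428, and 4 to 1664 with a library left out. Genes called lower numbered 468, and 2 to 772 with a library left out, 974 with DESeq2, 200 with library size only and 282 with the replicate block. Of the calls 75.3% were rises, against 90.6% with library size only. In the related lists 35 genes rose (0 to 37 with a library left out) and 4 fell (0 to 6), with 10 falls with DESeq2, 1 with library size only and 1 with the replicate block. Signs turned, with no call, for Gpc4 (0.229), Zfhx3 (0.0564) and Furin (0.00152) with library size only. With a library left out Gpc4 ranged from -0.109 to 0.0145 and Mid1ip1 from -0.328 to 0.538. The causes were not tested. Members under about 10 counts per library, as Spink1, Tff3 and Bex1 in chow, have fold changes of uncertain size.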
